A study of Rattus norvegicus with 20 samples.

Results

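The 8 genes described here encode the contractile apparatus of smooth muscle and are used to mark the peritubular cells of the testis: Acta2, Actg2, Cnn1, Tagln, Myh11, Mylk, Myl9 and Des. They were chosen by symbol among the 14217 genes for which the array holds a probe set of a single gene. The rule itself used no measured value, but earlier results of these data were known when it was made. The array annotates 15 probe sets to these symbols. Of these, 10 belong to 1 of the genes alone, with a pair each for Myh11 and Mylk, and 5 are annotated to Acta2 and the cardiac actin Actc1 together. The shared 5 are described but not counted as Acta2. Each gene is represented by its probe set with the highest mean signal, and all 8 of these passed the filter on low values, whereas the second Myh11 probe set and 1 of the shared probe sets did not. Cnn1 lay under the 40th percentile of the array on every E13, E14 and DMSO culture array. It passed through the E16 arrays and 1 culture array. Its differences of E16 from the earlier stages and from DMSO culture were thus partly set by the filter.

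In smooth muscle, myosin filaments pull on actin filaments once calcium and calmodulin switch on myosin light chain kinase, and the genes of the apparatus are switched on by serum response factor with its partner myocardin at a DNA element called the CArG box. In the testis, flattened peritubular myoid cells acquire this apparatus around the seminiferous cords, where Sertoli cells signal to them through hedgehog and platelet-derived growth factor ligands. The same genes are expressed in smooth muscle of blood vessels and of the ducts, and some of them in striated muscle.

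RNA of whole testes from Sprague-Dawley rat embryos was hybridized to Affymetrix arrays, 20 arrays in 10 groups of 2. Dams received vinclozolin, a fungicide whose metabolites block the androgen receptor, in DMSO at a daily dose of 100 mg/kg from embryonic day 8 (E8) up to E14, and control dams received DMSO alone. The in utero groups were vinclozolin and vehicle testes of E13, E14 and E16, so the E16 testes were taken after the last injection. E13 gonads were also explanted together with the mesonephros, kept for 3 days and freed of the mesonephros before RNA was taken. These groups were 50 µM vinclozolin in DMSO, DMSO alone, 0.5 µM flutamide (an antiandrogen drug) in ethanol, and ethanol alone. The arrays are called biological replicates, but whether they came from separate animals or from pools is not given, so a p-value reflects only how far these arrays spread.

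Signal is the MAS5 intensity as deposited, whose trimmed mean was 210.1 in utero, 218.1 on the arrays of the vinclozolin culture and 107 on those of flutamide. Differences are on the log2(signal + 16) scale with their standard error, and a gene is called when its adjusted p is under 0.05 over all 22526 probe sets tested. Precision is limited by there being 2 arrays per group, and the standard error of a group difference had a median of 0.24 over the probe sets. Some libraries stood apart. Markers of striated muscle, summed over 18 measured genes, reached 5600 on E16 vehicle replicate 1, against 2560 to 2880 on the other E16 arrays. That array was also lowest for fetal Leydig cells (13900, against 21700 to 24000) and Sertoli cells (4320, against 5000 to 5860). It was highest for erythroid cells (19100, against 12100 to 14600) and mesothelium (2720, against 2040 to 2110). Its interstitial and pericyte sums lay within the other E16 arrays. On E14 vehicle replicate 1 the striated muscle sum was 1440, against 776 to 951 on the other E14 arrays. Marker sums of other cells stood apart on that array too. It was lowest for Sertoli cells (3480, against 8950 to 11000) and germ cells (174, against 397 to 552). It was also lowest for endothelial cells (2570, against 2690 to 2980). It was highest for erythroid cells (11200, against 3020 to 4510), interstitial stroma (20400, against 15000 to 15900) and mesonephric epithelium (2510, against 1620 to 1900). The same held for pericytes and vascular smooth muscle (1300, against 797 to 960) and fetal Leydig cells (1630, against 964 to 1160). The mesothelium sum of 3470 lay within the other E14 arrays. The Sertoli cell hormone Amh was low on the first E13 array of each group, at 372 with vinclozolin and 106 with vehicle, against 1102 and 1485 on the second arrays. The actin 3' over 5' ratio, which is higher in degraded RNA, lay between 1.73 and 3.47 in utero, between 2.67 and 3.90 on the vinclozolin culture arrays and between 9.08 and 11.06 on the flutamide culture arrays.

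Between E13 and E16 the contractile genes differed in the step at which they were called higher. Mylk, by the brighter of its probe sets, was called from E13 to E14 under both treatments and Acta2 and Des with vinclozolin, whereas Tagln, Cnn1 and Actg2 were called from E14 to E16 under both treatments and not before. The plot of signal by stage shows the values of every in utero array.

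**Figure D1:**
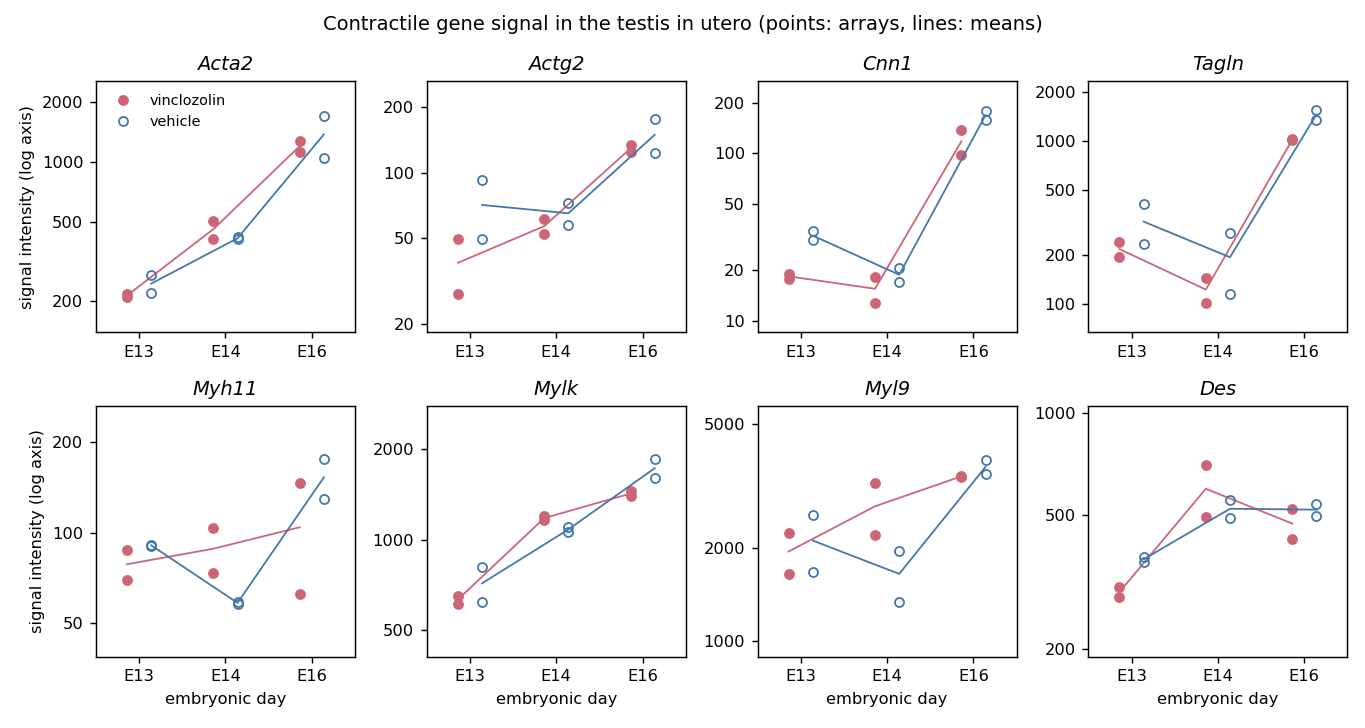
Signal intensity (log axis) of the 8 genes against embryonic day, with filled points for vinclozolin arrays, open points for vehicle arrays and lines through the means of 2 arrays. Acta2 and Mylk climbed over both steps, Cnn1 and Tagln were at their lowest mean at E14 and at their highest at E16, and Des differed little between E14 and E16.

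Acta2 encodes smooth muscle alpha-actin, the main actin of the contractile thin filament. In vinclozolin testes its signal was 218 and 210.1 at E13, 508 and 413 at E14, and 1122 and 1283 at E16. In vehicle testes it was 271 and 220 at E13, 419 and 410.5 at E14, and 1052 and 1702 at E16. No array of a later stage overlapped those of an earlier one, while the arrays of both treatments overlapped at E14 and E16. Between E13 and E14 Acta2 rose by 1.04 ± 0.23 with vinclozolin (adjusted p = 0.00649), whereas the vehicle difference of 0.73 ± 0.23 missed the threshold (adjusted p = 0.0872). From E14 to E16 it rose by 1.36 ± 0.23 with vinclozolin (adjusted p = 0.00055) and by 1.65 ± 0.23 with vehicle (adjusted p = 0.00024). Whether fewer cells of a type or less RNA per cell lies behind a level cannot be told apart in RNA of a whole testis.

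The promoter windows of Acta2, Cnn1 and Des are printed because these genes were called at different steps in vinclozolin testes: Acta2 in both, Cnn1 in the second and Des in the first. Each window holds 250 bases before to 50 after the start of the gene, 5′ to 3′ on the gene's strand, from RefSeq on the GRCr8 assembly. They lie at chr1:241172454-241172753 (minus strand) for Acta2, chr8:28908187-28908486 (plus strand) for Cnn1 and chr9:84299376-84299675 (plus strand) for Des. Capitals mark a relaxed CArG match, which starts with CC, ends with GG and has at most 1 G or C among the 6 core letters between them.
Acta2: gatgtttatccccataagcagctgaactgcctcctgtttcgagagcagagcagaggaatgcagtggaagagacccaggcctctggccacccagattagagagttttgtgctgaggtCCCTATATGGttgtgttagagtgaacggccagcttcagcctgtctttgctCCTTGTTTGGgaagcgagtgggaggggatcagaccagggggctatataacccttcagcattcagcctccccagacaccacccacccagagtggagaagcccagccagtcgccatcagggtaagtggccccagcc
Cnn1: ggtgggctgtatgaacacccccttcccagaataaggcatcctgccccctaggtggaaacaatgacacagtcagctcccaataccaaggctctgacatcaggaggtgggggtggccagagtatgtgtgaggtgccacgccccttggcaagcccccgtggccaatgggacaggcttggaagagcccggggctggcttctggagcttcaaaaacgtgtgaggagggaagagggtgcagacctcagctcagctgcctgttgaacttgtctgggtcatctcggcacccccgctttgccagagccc
Des: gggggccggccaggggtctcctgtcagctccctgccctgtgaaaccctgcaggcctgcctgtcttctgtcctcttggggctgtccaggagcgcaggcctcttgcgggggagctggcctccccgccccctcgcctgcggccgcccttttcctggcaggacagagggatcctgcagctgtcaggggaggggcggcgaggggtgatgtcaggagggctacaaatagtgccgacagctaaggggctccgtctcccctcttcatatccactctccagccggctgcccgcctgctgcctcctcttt
A window was found for 5 of the 8 genes (also Actg2 and Mylk), and Tagln, Myh11 and Myl9 are named only. The strict CArG box, with only A or T in the core, was searched on both strands and occurred in 0 of the 5 windows and in 1.64% of all 33469 windows. The relaxed form, chosen after the strict one had given no match, occurred in Acta2 with 2 matches that do not overlap, at 134 to 125 and 84 to 75 bases before the start. Of all windows, 9.42% held at least 1 relaxed match and 0.846% held 2 or more. Cnn1, Des, Actg2 and Mylk held none in these letters.

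Actg2 encodes smooth muscle gamma-actin, the actin of visceral smooth muscle. With vinclozolin its signal was 49.2 and 27.6 at E13, 61.4 and 51.9 at E14, and 134.5 and 124.2 at E16. With vehicle it was 92.7 and 49.3 at E13, 72.7 and 57.2 at E14, and 122.6 and 176.3 at E16. The E16 arrays were above all others, and with vehicle the E13 arrays enclosed the E14 arrays. The second step was called and the first was not, with 1.00 ± 0.27 in vinclozolin testes (adjusted p = 0.0125) and 1.02 ± 0.27 in vehicle testes (adjusted p = 0.015). From E13 to E16 Actg2 rose by 1.45 with vinclozolin (adjusted p = 0.00361) and by 0.95 with vehicle (adjusted p = 0.0379). These calls were lost without E13 vinclozolin replicate 2 (1.16, adjusted p = 0.0561), E16 vinclozolin replicate 1 (1.39, adjusted p = 0.0501), E13 vehicle replicate 2 (0.59, adjusted p = 0.272) or E16 vehicle replicate 2 (0.72, adjusted p = 0.253). In the second step the vehicle call was lost without E14 vehicle replicate 2 (0.88, adjusted p = 0.0953) or E16 vehicle replicate 2 (0.78, adjusted p = 0.125). The vinclozolin call was lost without E14 vinclozolin replicate 2 (0.91, adjusted p = 0.0599) or E16 vinclozolin replicate 1 (0.95, adjusted p = 0.0852).

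Cnn1 encodes calponin, which binds actin and damps the myosin motor, and Tagln encodes transgelin (SM22), a calponin-related actin binder. Cnn1 signal with vinclozolin was 19.0 and 17.8 at E13, 18.2 and 12.8 at E14, and 98.0 and 137.6 at E16. Vehicle testes read 34.2 and 30.2 at E13, 20.5 and 17.1 at E14, and 157.5 and 180.1 at E16. Cnn1 thus stood near the low end of the arrays until E14 and was separate at E16 under both treatments. Tagln signal with vinclozolin was 241.7 and 194.3 at E13, 145.0 and 101.4 at E14, and 1024 and 1010 at E16. With vehicle it was 409 and 233 at E13, 274 and 115 at E14, and 1552 and 1352 at E16. The E16 arrays were far above all earlier ones, and the E14 mean was the lowest of the 3 stages under both treatments.

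Neither gene was called between E13 and E14, where the Tagln difference was -0.76 ± 0.37 with vinclozolin (adjusted p = 0.17) and -0.74 ± 0.37 with vehicle (adjusted p = 0.26). From E14 to E16 Tagln rose by 2.91 ± 0.37 with vinclozolin (adjusted p = 8.29e-05) and by 2.91 ± 0.37 with vehicle (adjusted p = 0.000132). Cnn1 rose by 2.08 ± 0.24 with vinclozolin (adjusted p = 4e-05) and by 2.41 ± 0.24 with vehicle (adjusted p = 2.03e-05). These were the largest changes of the 8 genes in that step, 7.51-fold with vinclozolin and 7.52-fold with vehicle for Tagln.

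Myh11 encodes the smooth muscle myosin heavy chain, the motor itself. Its signal with vinclozolin was 87.6 and 69.4 at E13, 73.2 and 103.6 at E14, and 62.5 and 145.9 at E16. With vehicle it was 90.6 and 90.9 at E13, 58.8 and 58.0 at E14, and 129.1 and 176.1 at E16. The vinclozolin arrays overlapped across the 3 stages, and the E16 pair was the widest. Myh11 was called only in the vehicle step from E14 to E16, by 1.17 ± 0.29 (adjusted p = 0.0107), and not between E13 and E16 (0.65 ± 0.29, adjusted p = 0.197). Without E16 vehicle replicate 2 the call was lost (0.96, adjusted p = 0.0864). The second Myh11 probe set read between 4.8 and 25.7 in utero and was not tested.

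Myl9 encodes the regulatory light chain of smooth muscle myosin, and Mylk the kinase that phosphorylates it. Myl9 signal with vinclozolin was 1650 and 2237 at E13, 3236 and 2199 at E14, and 3389 and 3398 at E16. With vehicle it was 1674 and 2541 at E13, 1335 and 1957 at E14, and 3822 and 3460 at E16. The E16 arrays were the highest under both treatments, and E13 and E14 overlapped. In vehicle testes Myl9 rose by 1.16 ± 0.22 from E14 to E16 (adjusted p = 0.00231). The same step with vinclozolin was 0.35 ± 0.22 (adjusted p = 0.271). Over E13 to E16 it rose by 0.82 ± 0.22 with vinclozolin (adjusted p = 0.0369) and by 0.81 ± 0.22 with vehicle (adjusted p = 0.0305). The vehicle call was lost without E13 vehicle replicate 1 (0.51, adjusted p = 0.291), E16 vehicle replicate 1 (0.74, adjusted p = 0.138) or E16 vehicle replicate 2 (0.88, adjusted p = 0.0853). Myl9 was called from E13 to E14 with vinclozolin when E14 vinclozolin replicate 2 was left out (0.75, adjusted p = 0.0481). The vinclozolin call over E13 to E16 was lost without E13 vinclozolin replicate 1 (0.60, adjusted p = 0.31), E16 vinclozolin replicate 1 (0.82, adjusted p = 0.191) or E16 vinclozolin replicate 2 (0.81, adjusted p = 0.162).

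Mylk signal with vinclozolin was 651 and 614 at E13, 1197 and 1158 at E14, and 1391 and 1447 at E16. With vehicle it was 623 and 809 at E13, 1060 and 1099 at E14, and 1848 and 1594 at E16. The stages did not overlap under either treatment, and Mylk was called in the first step, in which Myl9 was not. It rose by 0.88 ± 0.14 from E13 to E14 with vinclozolin (adjusted p = 0.00116) and by 0.59 ± 0.14 with vehicle (adjusted p = 0.0317). The vehicle call was lost without E13 vehicle replicate 1 (0.41, adjusted p = 0.14), E14 vehicle replicate 1 (0.62, adjusted p = 0.105) or E14 vehicle replicate 2 (0.57, adjusted p = 0.0903). From E14 to E16 Mylk rose by 0.66 ± 0.14 with vehicle (adjusted p = 0.0034), and the vinclozolin difference was 0.27 ± 0.14 (adjusted p = 0.158). A second, dimmer Mylk probe set gave another course, with 1.72 ± 0.43 between E13 and E14 (adjusted p = 0.0443) and -0.21 ± 0.43 between E14 and E16 (adjusted p = 0.757) in vehicle testes. In vinclozolin testes it was called in neither step, with 0.25 (adjusted p = 0.74) and 0.27 (adjusted p = 0.686), nor over E13 to E16 (0.52, adjusted p = 0.564). Its E13 vehicle arrays read 37.0 and 2.1, so the probe sets of Mylk disagree on its course.

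Des encodes desmin, the intermediate filament that ties the contractile bundles together in smooth and striated muscle. Its signal with vinclozolin was 306 and 285 at E13, 702 and 493 at E14, and 423 and 520 at E16. Vehicle testes read 376 and 363 at E13, 489 and 554 at E14, and 539 and 498 at E16. E13 was lowest under both treatments, and E14 and E16 overlapped. Des rose by 0.96 ± 0.20 from E13 to E14 with vinclozolin (adjusted p = 0.00497), and the vehicle difference was 0.48 ± 0.20 (adjusted p = 0.176). Without E14 vinclozolin replicate 1 the vinclozolin calls of Des (0.71, adjusted p = 0.082) and of Acta2 (0.90, adjusted p = 0.0829) in this step were lost.

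Counted over the 8 genes, 3 were called higher at E14 than at E13 with vinclozolin, where 10.8% of all 11677 genes were, and 1 with vehicle, where 1.46% of all genes were. From E14 to E16, 4 were called higher with vinclozolin, against 15.4% of all genes, and 7 with vehicle, against 12.6%. From E13 to E16, 6 were called higher under each treatment, against 5.03% of all genes with vinclozolin and 6.4% with vehicle. None of the 8 was called lower in any of these steps. Of all genes, 9.08% with vinclozolin and 1.88% with vehicle were lower at E14 than at E13, 18.3% and 12.9% were lower at E16 than at E14, and 3.43% and 4.62% were lower at E16 than at E13. The median difference from E13 to E16 was 1.30 with vinclozolin and 1.10 with vehicle, where the medians of all genes were 0.02 and 0. In vehicle testes the Myl9 call over E13 to E16 was lost with quantile normalization (0.66, adjusted p = 0.0623) and no variance trend (0.81, adjusted p = 0.0617). That of Actg2 was lost with a pseudocount of 1 (1.11, adjusted p = 0.07) and no filter (0.95, adjusted p = 0.0612). With vinclozolin that of Myl9 was lost with no filter (0.82, adjusted p = 0.052) and no variance trend (0.82, adjusted p = 0.0735). Whether the steps differed between treatments was tested only through the effect of vinclozolin at each stage, described further on.

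**Figure D2:**
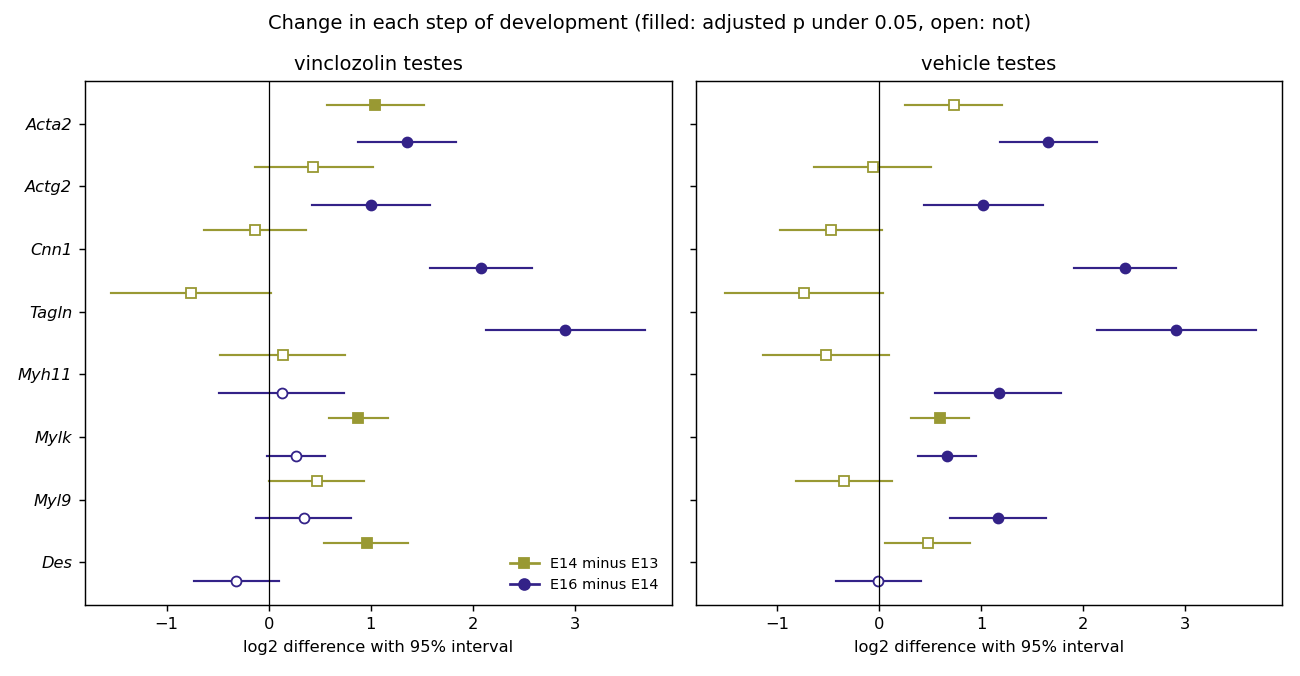
Log2 difference of each gene in the step from E13 to E14 (squares) and from E14 to E16 (circles) in vinclozolin and in vehicle testes, with 95% intervals and filled symbols where the adjusted p was under 0.05. Tagln and Cnn1 lie furthest right in the second step, while Des lies near 0 there under vehicle.

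Markers of other cells moved over the same stages, and their part in the result was not tested. Of the 15 striated muscle markers tested, 4 were called higher at E16 than at E13 with vinclozolin and 9 with vehicle. Their summed level was 698 to 1070 at E13, 776 to 1440 at E14 and 2560 to 5600 at E16, and the embryonic skeletal markers Myod1 and Myh3 read 65.5 and 382.7 on E16 vehicle replicate 1 and 1.5 and 34.7 on replicate 2. E16 vehicle replicate 1 was the highest in utero array for 14 of the 18 measured markers. Of the 8 contractile genes, 4 read higher on that array than on the second E16 vehicle array (Tagln, Mylk, Myl9 and Des) and 4 read lower (Acta2, Actg2, Cnn1 and Myh11). The 4 tested probe sets shared by Acta2 and Actc1 were highest on the same array, and the brightest read 733.3 on E16 vehicle replicate 1, 291.5 on E14 vehicle replicate 1 and between 44.0 and 191.1 on the other in utero arrays. With both of these vehicle arrays left out, 5 genes instead of 6 were called between E13 and E16, and 4 instead of 7 between E14 and E16. The calls lost from E14 to E16 were those of Myh11 (1.38, adjusted p = 0.0574), Mylk (0.53, adjusted p = 0.0901) and Myl9 (0.82, adjusted p = 0.0998), and from E13 to E16 that of Myl9 (0.74, adjusted p = 0.105). Markers of pericytes and vascular smooth muscle, 9 genes, summed to 561 to 714 at E13, 797 to 1300 at E14 and 709 to 748 at E16. They stood highest at E14 rather than at E16, with 1300 on E14 vehicle replicate 1 and 797 to 960 on the other E14 arrays. Mesonephric tubule and duct markers summed to 1640 to 2300 at E13, 1620 to 2510 at E14 and 1100 to 1370 at E16. Between E13 and E16 in vehicle testes, markers of fetal Leydig cells were called higher for 6 of 6 genes, of interstitial stroma for 8 of 10 and of erythroid cells for 4 of 4. Fetal Leydig markers summed to 828 to 1030 at E13, 964 to 1630 at E14 and 13900 to 24000 at E16. Interstitial markers summed to 11500 to 12300, 15000 to 20400 and 23100 to 29000 at those stages, and erythroid markers to 705 to 4680, 3020 to 11200 and 12100 to 19100.

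Other genes of the contractile system were read from 6 lists. Of all genes, 6.4% were called higher and 4.62% lower at E16 than at E13 in vehicle testes, and counts of 1 or 2 genes in a list are given as a description only. The thin filament list had 2 of 11 tested genes called higher and none lower. Tpm2, a muscle tropomyosin, rose by 1.66 (adjusted p = 0.000176) and Tpm1, another tropomyosin, by 0.53 (adjusted p = 0.0256). The list of membrane and filament anchors had 5 of 22 higher and none lower. The LIM protein genes Pdlim3 and Fhl2 rose by 2.51 (adjusted p = 9.41e-06) and 1.48 (adjusted p = 5.68e-05), the caveolin gene Cav1 by 2.01 (adjusted p = 2.14e-05), and Nexn, an actin-binding protein gene, by 1.18 (adjusted p = 0.00148). The list of nonmuscle myosin, light chains and their phosphorylation had none of 10 higher and 2 lower. These were Myl12b, a light chain gene (-0.69, adjusted p = 0.00965), and Myh10, a nonmuscle heavy chain gene (-0.55, adjusted p = 0.035). Of receptors, channels and calcium handling genes, 1 of 10 was lower, the calcium pump gene Atp2a2 (-0.92, adjusted p = 0.000208).

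Among 16 tested transcription factors of smooth muscle genes, 1 was higher and 1 lower at E16 than at E13. Myocd, which encodes myocardin, the partner of serum response factor, rose by 1.55 (adjusted p = 0.00331). From E13 to E14 it was called too, by 0.99 with vinclozolin (adjusted p = 0.0301) and 1.43 with vehicle (adjusted p = 0.0225). Its vehicle signal was 31.5 and 6.5 at E13, 70.3 and 74.3 at E14, and 86.4 and 72.9 at E16. All E13 arrays of Myocd lay under the 40th percentile of the array, so its difference from E13 was partly set by the filter. The vehicle call from E13 to E14 was lost without E13 vehicle replicate 2 (0.89, adjusted p = 0.157) or either E14 vehicle array (1.47, adjusted p = 0.0835, and 1.40, adjusted p = 0.0577). Nr2f1, a nuclear receptor gene, fell by 2.26 (adjusted p = 0.00711). Of 13 tested signals to peritubular cells, 3 were higher. Gli1, a target and effector of hedgehog signalling, rose by 1.31 (adjusted p = 0.015), the receptor gene Pdgfra by 1.10 (adjusted p = 0.000104) and the ligand gene Tgfb3 by 2.40 (adjusted p = 5.99e-06). From E13 to E14 in vehicle testes Pdgfra rose by 1.11 (adjusted p = 0.00131) and Gli1 by 1.41 (adjusted p = 0.0294). The E13 vehicle arrays of Gli1 read 50.5 and 170.9, and without the first of them its difference was 0.67 from E13 to E14 (adjusted p = 0.105) and 0.56 from E13 to E16 (adjusted p = 0.201). The Gli1 call over E13 to E16 was also lost without either E16 vehicle array (1.25, adjusted p = 0.0776, and 1.37, adjusted p = 0.0604). So were, without E16 vehicle replicate 2, the calls of Tpm1 (0.52, adjusted p = 0.107), Myl12b (-0.61, adjusted p = 0.0767), Myh10 (-0.44, adjusted p = 0.209) and Nr2f1 (-2.09, adjusted p = 0.061). Without E13 vehicle replicate 1 the Nr2f1 difference was -1.37 (adjusted p = 0.114).

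In gonads kept in culture from E13, the contractile genes lay below the level of E16 testes, the age that the culture reached. DMSO culture was set against E16 vehicle and E13 vehicle testes after every array had been rescaled to a trimmed mean of 210.1. The culture arrays form a set of their own, so culture and array set cannot be told apart. Of the 8 genes, 7 were called lower in DMSO culture than in E16 testes, against 13.7% of all genes, and none was higher, against 9.14%. The arrays of all 8 lay below both E16 arrays, as did 35.3% of all genes. The median difference was -1.64, where that of all genes was -0.06. All 7 calls held when any 1 array was left out. Markers of several other cells were lower in DMSO culture than at E16 as well, and their part was not tested. These were 9 of 15 striated muscle, 4 of 7 endothelial, 4 of 4 erythroid, 4 of 10 interstitial stroma, 3 of 6 fetal Leydig, 2 of 8 mesonephric and 1 of 3 germ cell markers. Erythroid markers summed to 368 and 246 in DMSO culture, against 19100 and 12100 at E16. Interstitial markers summed to 17000 and 15300 in DMSO culture, against 24900 and 29000 at E16, and fetal Leydig markers to 9060 and 9080, against 13900 and 21700. Sertoli cell markers went the other way, with sums of 9940 and 9330 in DMSO culture, against 4320 and 5860 at E16, and their part was not tested either.

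**Figure D3:**
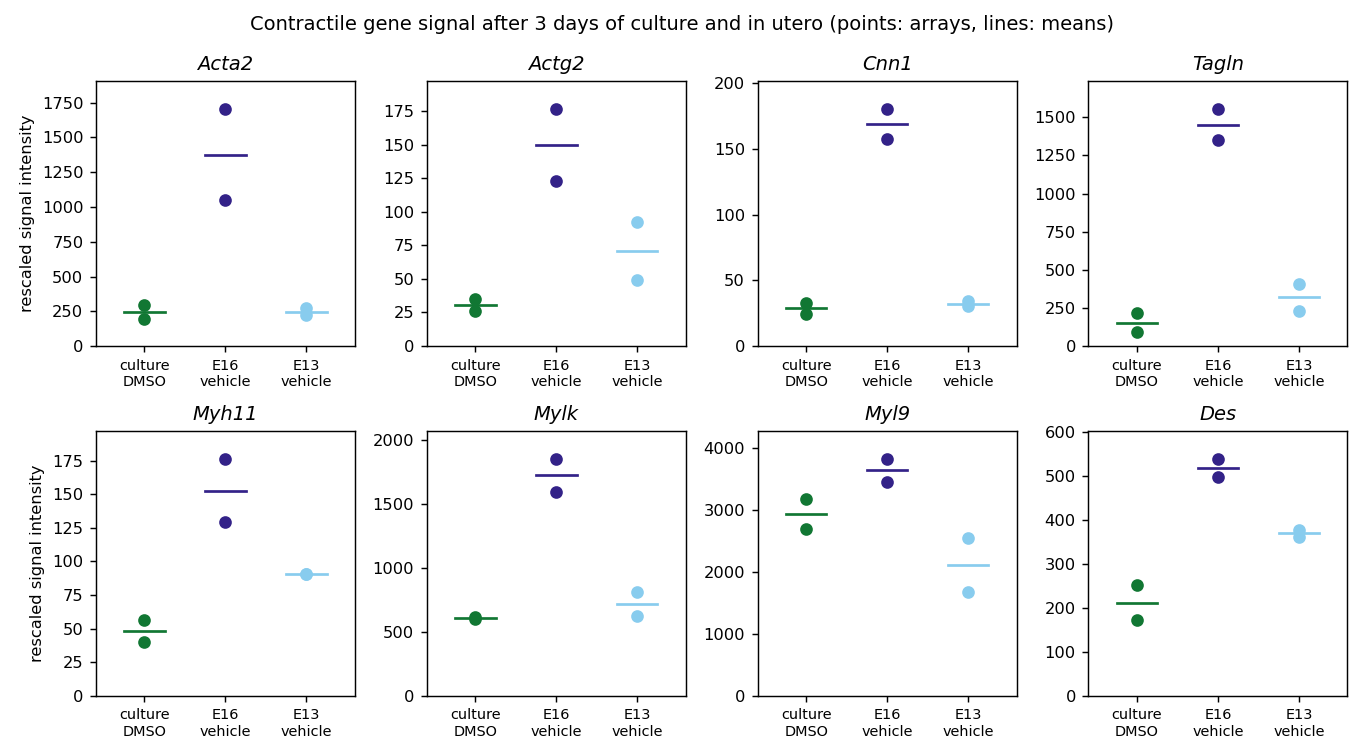
Rescaled signal intensity, on a linear axis from 0, of the 8 genes in DMSO culture, E16 vehicle testes and E13 vehicle testes, with points for arrays and lines for means of 2. In DMSO culture every gene lies below both E16 arrays, and Myl9 alone lies above both E13 arrays.

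Rescaled Acta2 signal was 292.5 and 190.8 in DMSO culture, against 1052 and 1702 at E16 and 271 and 220 at E13. Culture thus enclosed the E13 level, with a difference of -0.04 ± 0.23 from E13 (adjusted p = 0.917) and of -2.42 ± 0.23 from E16 (adjusted p = 6.31e-06). Tagln read 214.4 and 93.3 in culture, against 1552 and 1352 at E16 and 409 and 233 at E13. It had the largest difference from E16 of the 8 genes, -3.21 ± 0.37 (adjusted p = 3.31e-05), and its difference from E13 missed the threshold (-1.03 ± 0.37, adjusted p = 0.0562). Cnn1 read 33.0 and 24.5 in culture, against 157.5 and 180.1 at E16 and 34.2 and 30.2 at E13. Its difference was -2.05 ± 0.25 from E16 (adjusted p = 5.76e-05) and -0.11 ± 0.25 from E13 (adjusted p = 0.792). Both DMSO arrays read Cnn1 under the 40th percentile of the array, so its difference from E16 was partly set by the filter. Mylk read 615 and 598.8 in culture, against 1848 and 1594 at E16 and 623 and 809 at E13. It lay just under both E13 arrays, with a difference of -1.48 ± 0.14 from E16 (adjusted p = 5.77e-06) and -0.22 ± 0.14 from E13 (adjusted p = 0.266). Its second probe set differed from E16 by -1.01 and was not called (adjusted p = 0.113). Myh11 read 40.1 and 56.1 in culture, below both E16 and E13, and differed from E16 by -1.39 ± 0.30 (adjusted p = 0.00345) and from E13 by -0.75 ± 0.30 (adjusted p = 0.0847).

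Against E13, the stage at which the culture began, 2 of the 8 were called lower, where 13.5% of all genes were, and none higher, where 9.67% were. The arrays of 5 lay below both E13 arrays, as did 35.6% of all genes. Des read 252 and 171.5 in culture, against 376 and 363 at E13, a difference of -0.78 ± 0.20 (adjusted p = 0.00991). On the ethanol culture arrays, which belong to another set, rescaled Des read 377.4 and 378.8, at the E13 level. On those arrays Mylk read 908.3 and 957.8, above both E13 arrays, and Myl9 1352.9 and 1429.4, below both. Acta2 (201.2 and 204.1) and Tagln (122.5 and 160.9) lay below E13 there too. Myh11 (73.8 and 112.5), Cnn1 (32.0 and 46.5) and Actg2 (36.7 and 50.8) overlapped the E13 range. In DMSO culture Actg2 read 35.4 and 26.3, against 92.7 and 49.3 at E13, a difference of -0.85 ± 0.28 (adjusted p = 0.0398). Without the second DMSO array neither was called (Des -0.52, adjusted p = 0.162, and Actg2 -0.71, adjusted p = 0.234). Without E13 vehicle replicate 1, or without the first DMSO array, Actg2 was not called (-0.49, adjusted p = 0.33, and -0.99, adjusted p = 0.0633). With both E13 arrays of low Amh left out, neither was called (Des -0.76, adjusted p = 0.0521, and Actg2 -0.49, adjusted p = 0.307). Without E13 vehicle replicate 2, 4 genes were called, with Tagln lower (-1.42, adjusted p = 0.037) and Myl9 higher (0.80, adjusted p = 0.0423) besides these. Without the first DMSO array Tagln was called lower too (-1.57, adjusted p = 0.0158).

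Myl9 was called against neither stage. It read 3180 and 2687 in DMSO culture, against 3822 and 3460 at E16 and 1674 and 2541 at E13. DMSO culture lay between the stages without touching either, and the differences of -0.31 ± 0.22 from E16 (adjusted p = 0.334) and 0.50 ± 0.22 from E13 (adjusted p = 0.123) were not called.

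The wider system in culture did not follow 1 course. Of the thin filament list 5 of 11 were lower than at E16 and none was higher, and of the anchors 10 of 22 were lower and 2 higher. Pdlim3 differed by -3.06 (adjusted p = 1.99e-06), Cav1 by -2.86 (adjusted p = 1.92e-06), Tpm2 by -2.16 (adjusted p = 1.36e-05), Nexn by -1.30 (adjusted p = 0.000448), Fhl2 by -1.27 (adjusted p = 0.00017) and Tpm1 by -1.0 (adjusted p = 0.000179). These genes were named for being higher at E16 than at E13 vehicle. The comparison of culture with E16 shares those E16 vehicle arrays, so the choice itself favoured a lower value in culture. The 4 regulators and signals named above were chosen for being higher at E16 than at E13 vehicle, and the culture comparison shares those E13 vehicle arrays. Myocd was higher in DMSO culture than in E13 testes by 1.01 (adjusted p = 0.0258), Gli1 by 1.58 (adjusted p = 0.00232), Pdgfra by 1.32 (adjusted p = 1.38e-05) and Tgfb3 by 1.10 (adjusted p = 0.00307). Without E13 vehicle replicate 2 the Myocd difference was 0.47 (adjusted p = 0.344), and without E13 vehicle replicate 1 that of Gli1 was 0.84 (adjusted p = 0.0213). Against E16, Tgfb3 was lower with a difference of -1.30 (adjusted p = 0.000905), and Myocd (-0.53, adjusted p = 0.219), Gli1 (0.27, adjusted p = 0.576) and Pdgfra (0.23, adjusted p = 0.259) were not called.

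**Figure D4:**
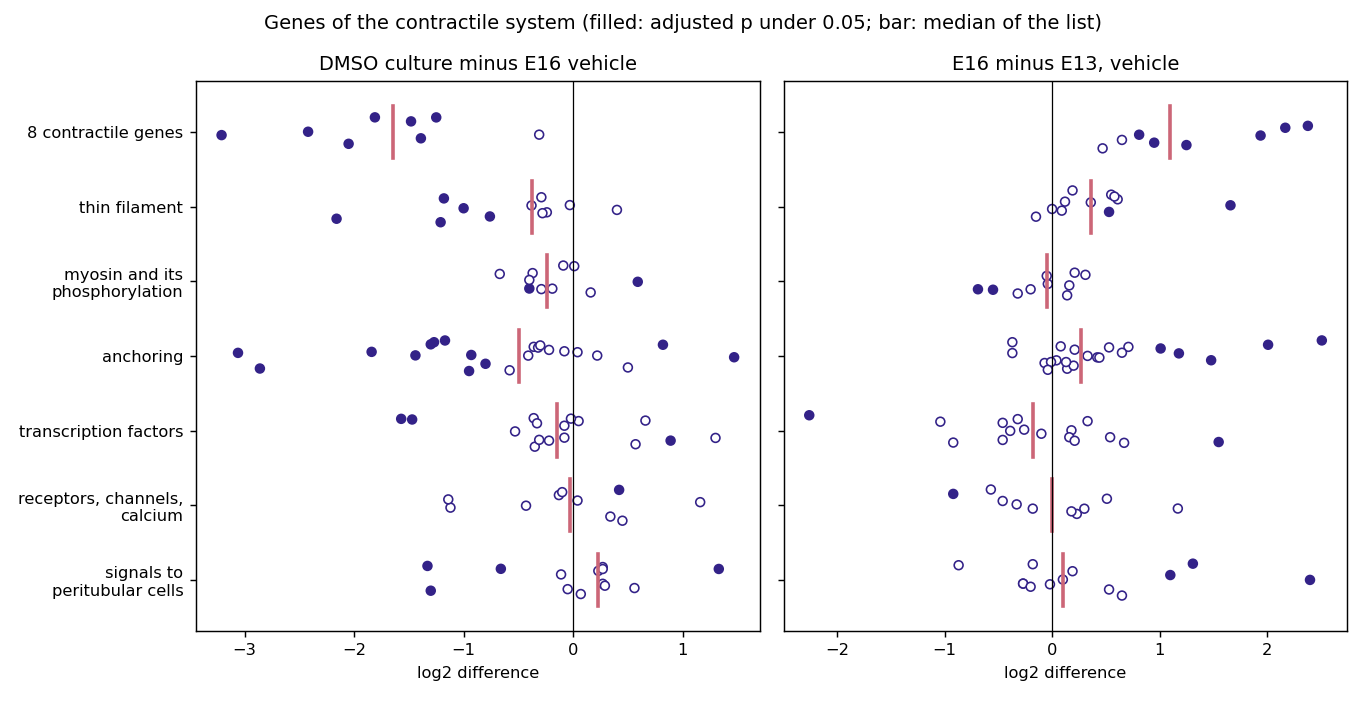
Log2 difference of the 8 genes and of the tested genes of 6 lists of the contractile system, in DMSO culture minus E16 vehicle (left) and in E16 minus E13 vehicle (right), with 1 point per gene, filled where the adjusted p was under 0.05, and a bar at the median of the list. The 8 genes have medians of -1.64 on the left and 1.10 on the right, further from 0 than the medians of the 6 lists.

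Vinclozolin in utero gave no called difference for any of the 8 genes at any stage. The 8 genes share these arrays, and Pearson r between pairs ranged from 0.06 to 0.92 over the in utero and vinclozolin culture arrays. A count of their signs is thus not a count of separate readings. At E13 all 8 differences were below 0, where 55.5% of all genes were, with a median of -0.24 against -0.02 for all genes. Under the alternatives 6 to 8 were below 0. The 6 came from leaving out E13 vehicle replicate 2, where Myl9 reached 0.20 and the brighter Mylk probe set was no longer below 0. In another alternative the second Mylk probe set stood for the gene and differed by 1.05 (adjusted p = 1). The arrays of 5 lay below both vehicle arrays, as did 15.4% of all genes. limma called 0 of the 8, against 0% of all genes in either direction, and 1 had an unadjusted p under 0.05, where 1.34% of all genes had. This was Actg2, at 49.2 and 27.6 with vinclozolin and 92.7 and 49.3 with vehicle (-0.66 ± 0.27, adjusted p = 1). At E14, 3 of 8 differences were below 0, where 48.1% of all genes were, and the other 5 above it. Further, the arrays of 3 lay above both vehicle arrays, as did 15.9% of all genes. limma called 0 of the 8, against 0.00856% of all genes called higher and 0% lower, and 1 had an unadjusted p under 0.05, where 5.66% of all genes had. This was Myl9, at 3236 and 2199 with vinclozolin and 1335 and 1957 with vehicle (0.72 ± 0.22, adjusted p = 0.888).

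At E16, after the injections had ended, all 8 differences were below 0, where 52.3% of all genes were, a count with the same limit as at E13. Their median was -0.22 against -0.01 for all genes. Under the alternatives 6 to 8 were below 0: Acta2 reached 0.19, Actg2 0.07 and Des 0.01, and the second Mylk probe set differed by 0.07. The arrays of 4 lay below both vehicle arrays, as did 18.9% of all genes. limma called 0 of the 8, against 0% of all genes, and none had an unadjusted p under 0.05, where 4.31% of all genes had. Tagln read 1024 and 1010 with vinclozolin and 1552 and 1352 with vehicle, which did not overlap, and differed by -0.50 with a 95% interval of -1.28 to 0.27. Cnn1 read 98.0 and 137.6 with vinclozolin and 157.5 and 180.1 with vehicle, and differed by -0.48 with an interval of -0.98 to 0.02. Mylk read 1391 and 1447 with vinclozolin and 1848 and 1594 with vehicle, and differed by -0.27 with an interval of -0.56 to 0.01. For these genes a fall of the size of the lower bound and no change both lie within the interval. Acta2 overlapped between the treatments and differed by -0.16 with an interval of -0.63 to 0.32. The striated muscle markers summed to 2880 and 2770 with vinclozolin and 5600 and 2560 with vehicle, and their part in these differences was not tested.

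Averaged over the 3 stages, limma again called 0 of the 8, against 0% of all genes, and 2 had an unadjusted p under 0.05, where 3.16% of all genes had. These were Cnn1 (-0.37, unadjusted p = 0.0149, adjusted p = 0.998) and Tagln (-0.50, unadjusted p = 0.032, adjusted p = 0.998). Both were below 0 at each stage, Tagln by -0.48, -0.50 and -0.50 and Cnn1 by -0.49, -0.15 and -0.48 at E13, E14 and E16. The comparisons at the stages are of separate arrays, but none passed on its own. The limma test of whether the effect differed between stages called 0 of the 8, against 0% of all genes, and 1 lay under 0.05 before adjustment. This was Myl9, with an unadjusted p of 0.0269 and an adjusted p of 0.983 from limma. No gene of the 6 lists was called in a treatment comparison.

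**Figure D5:**
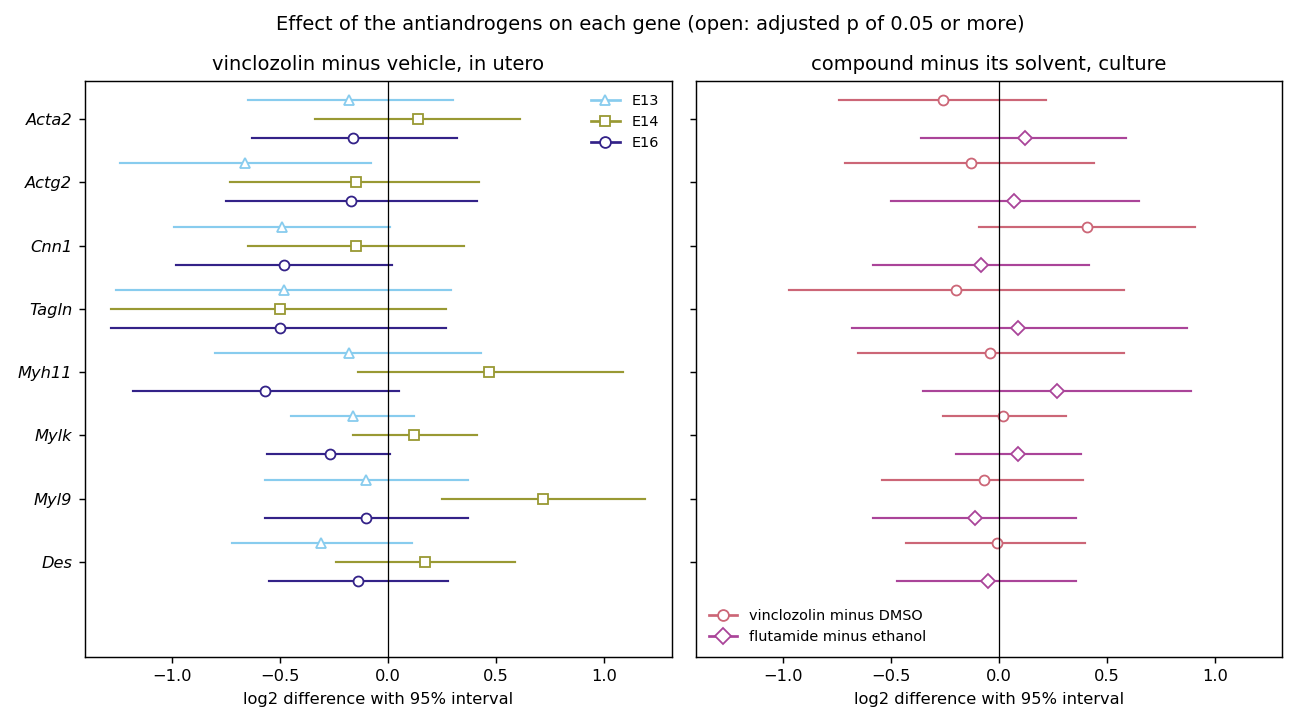
Log2 difference with 95% interval of each gene for vinclozolin minus vehicle at 3 stages in utero (left) and for each compound minus its solvent in culture (right), with open symbols where the adjusted p was 0.05 or more, which was all of them. In utero the E13 and E16 differences lie left of 0 for all 8 genes (Mylk by its brighter probe set), and of the E14 differences 5 lie right of it.

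In culture, vinclozolin at 50 µM gave 2 differences above 0 and 6 below, with a median of -0.06, where 41.2% of all genes were below 0. limma called 0 of the 8, against 0% of all genes, and none had an unadjusted p under 0.05, where 2.54% of all genes had. Cnn1 read 40.2 and 49.2 with vinclozolin and 34.3 and 25.4 with DMSO, which did not overlap, and a difference of 0.41 with an interval of -0.09 to 0.91. Of these 4 arrays, 3 read Cnn1 under their 40th percentile. Cnn1 was the only gene of the 8 that lay above both DMSO arrays, as did 18.2% of all genes, and 0 lay below both, as did 10.2%. Tagln read 162.9 and 98.7 with vinclozolin and 222.6 and 96.9 with DMSO. Acta2 read 214.3 and 191.1 with vinclozolin and 303.6 and 198.1 with DMSO, a difference of -0.26 with an interval of -0.74 to 0.22. The arrays of both genes overlapped.

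Flutamide at 0.5 µM, a lower dose in another solvent and on arrays of another scale, gave 5 differences above 0 and 3 below, with a median of 0.08, where 52.9% of all genes were below 0. limma called 0 of the 8, against 0% of all genes, and none had an unadjusted p under 0.05, where 1.82% of all genes had. Acta2 read 97.8 and 131.1 with flutamide and 102.5 and 104.0 with ethanol (0.12, interval -0.36 to 0.59). Cnn1 read 14.6 and 21.3 with flutamide and 16.3 and 23.7 with ethanol (-0.08, interval -0.58 to 0.42). Tagln read 80.5 and 74.7 with flutamide and 82.0 and 62.4 with ethanol (0.09, interval -0.68 to 0.87). None of these 3 was separate between the groups. Of the 8, the flutamide arrays of 2 lay below both ethanol arrays, as did 20.5% of all genes, and those of 1 above both, as did 16.9%. The Myl9 arrays with flutamide, 641 and 672, lay below those with ethanol, 689 and 728, by -0.11 with an interval of -0.58 to 0.36. Des was also separate and lower (-0.05, interval -0.47 to 0.36), and Mylk was separate and higher (0.09, interval -0.20 to 0.38). Since doses differ, the compounds are not compared.

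The mean of the 8 genes' standardised log2 signals over the 16 in utero and vinclozolin culture arrays was used to find genes of a like course, as a description over arrays that share stages, scale and set. The 10 genes outside the 8 with the highest Pearson r were Pdlim3 (0.96), Tpm2 (0.95), Lima1 (0.95), Ccl21 (0.93), Plekhb1 (0.93), Rarres2 (0.93), Pawr (0.93), Fhl2 (0.93), Cav1 (0.93) and LOC102555063 (0.92). Rescaled Ccl21 signal was 1.9 and 1.7 at E13 vehicle, 3.8 and 1.4 in DMSO culture, and 47.1 and 53.5 at E16 vehicle. LOC102555063 read 17.8 and 28.9, 2.8 and 6.9, and 62.3 and 140.5 in those groups. On these E13 and DMSO arrays each gene lay under the percentile used by the filter, and on these E16 arrays above it. The r of Ccl21 and LOC102555063 was thus partly set by the filter. Pdlim3, Tpm2, Fhl2 and Cav1 are also on the lists of the contractile system. Among the 8 themselves r to the mean, which each helped to form, was 0.97 for Acta2, 0.93 for Actg2, 0.91 for Mylk, 0.89 for Tagln, 0.83 for Cnn1, 0.78 for Myh11, 0.69 for Des and 0.54 for Myl9. Between pairs it was highest for Acta2 with Mylk, at 0.92, and lowest for Myl9 with Des, at 0.06.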

How the data were processed

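The deposited values are MAS5 signal intensity, made by the authors and not on a log scale; the submitters' processing notes name GCOS too for the culture arrays. Versions of both are not stated in the labels. The trimmed means, without 2% of probe sets at either end, were checked on the tables and were equal within each set of arrays. Controls (57 of 31099 probe sets) were dropped. A probe set entered the tests when at least 2 arrays had it at or above their 40th percentile, which left 22526 probe sets and 11677 genes. Symbols came from the platform annotation, updated through RefSeq. limma 3.58.1 (R 4.3.3) was run on log2(signal + 16) of all 20 arrays with a mean for each group and a variance trend, with residual degrees of freedom of 10 and prior ones of 6.76. Two-sided p-values were adjusted by Benjamini-Hochberg over all tested probe sets. Culture was set against in utero arrays after rescaling to 1 trimmed mean, and all other contrasts used values as deposited.

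The genes named besides the 8 were those called in E16 minus E13 vehicle, at most 4 per list with the largest change first, and the 10 of highest likeness. The genes and lists were chosen with earlier results of these data known. The settings varied were the normalization (quantile), the pseudocount (1 and 64), the filter, the scale, the arrays in the fit, the block by replicate number, the variance trend, the probe set that stood for a gene, and each array left out in turn. Chosen after seeing the data were leaving out both vehicle arrays of high striated muscle signal or both E13 arrays of low Amh, a crossed block at E16, leaving out each array for the genes named from the lists, and the relaxed CArG form. The fit was tested on simulated data. Detection calls were not used here.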

Additional observations from a re-analysis of the deposited data

Results flagged for a closer look

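For 3 genes every vinclozolin array lay on 1 side of both vehicle arrays at one stage and on the other side at another, as they did for 11.2% of all genes. The pairwise difference between those stages was not tested, and the test over the 3 stages called none. Myh11 was higher with vinclozolin at E14 (73.2 and 103.6, against 58.8 and 58.0 with vehicle) and lower at E13 (87.6 and 69.4, against 90.6 and 90.9), and its effects differed by 0.66 on the log2 scale (unadjusted p over the 3 stages = 0.0639, adjusted p = 0.983). Mylk was higher at E14 (1197 and 1158, against 1060 and 1099) and lower at E16 (1391 and 1447, against 1848 and 1594), a difference of 0.40 between the effects (unadjusted p = 0.133, adjusted p = 0.983). The second Mylk probe set had the opposite signs, with vinclozolin minus vehicle of -0.42 at E14 and 0.07 at E16. Myl9 was higher at E14 (3236 and 2199, against 1335 and 1957) and lower at E16 (3389 and 3398, against 3822 and 3460), a difference of 0.82 (unadjusted p = 0.0269, adjusted p = 0.983). Groups of 2 arrays cannot be screened for outlying samples.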

How the results depend on the processing

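Of 1640 differences of single genes under an alternative, 507 were called in the main setting, and only these could lose a call. Of the 1640, 1582 kept their side of the threshold, 51 lost the call, 6 gained it and 1 called value turned. This was Mylk from E14 to E16 in vehicle testes, at -0.21 when the probe set of largest variance stood for the gene. Among the differences reported as not called, 51 changed sign under an alternative. The 2 genes called lower in DMSO culture than at E13 became 1 with a pseudocount of 64, with no filter and with the arrays of the experiment only, and 0 without both E13 arrays of low Amh. The 1 gene called higher at E14 than at E13 in vehicle testes became 0 with the arrays of the experiment only, with no variance trend, without both striated muscle arrays and without both low-Amh arrays. The 7 genes called from E14 to E16 in vehicle testes became 4 without both striated muscle arrays. Leaving out each array in turn gave 0 to 4 genes for DMSO culture minus E13, 7 to 7 for DMSO culture minus E16, 0 to 1 for E14 minus E13 in vehicle testes and 1 to 4 in vinclozolin testes, 5 to 7 for E16 minus E14 in vehicle testes and 3 to 4 in vinclozolin testes, and 4 to 5 for E16 minus E13 under either treatment. No treatment comparison called any of the 8 under any of these alternatives. A lone remaining array was taken to vary as other groups do, and the cause of the other changes was not tested. Same-numbered arrays had correlated deviations of 0.60 at E13, where both first arrays were low in Amh, -0.05 at E14, -0.11 at E16, and 0.12 and 0 in the cultures. The labels do not say whether the numbers mark the gonads of 1 embryo, which were split between compound and solvent in culture, so the block is an alternative only. With the replicate number as a block, 4 genes instead of 3 were called from E13 to E14 with vinclozolin and 3 instead of 2 for DMSO culture minus E13, Tagln being added as lower in each. Over all probe sets, vinclozolin minus vehicle gave 3 calls with the block against 1 without it at E14, and 1 against 0 at E16, where the crossed pairing gave 5.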
